A study of Mus musculus with 8 samples.

Results

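Vascular smooth muscle cells lacking E12 were compared with vascular smooth muscle cells lacking E47, gene by gene, in cultures made from mouse aorta. The comparison takes the 2 libraries labelled E12 KO and sets them against the 2 labelled E47 KO, so it uses 4 of the 8 libraries of the series. The other 4 are wild-type libraries, 2 labelled E12 WT and 2 labelled E47 WT. They stand outside the contrast and are given beside it as the difference that the matching wild-type cells showed. All 4 groups are primary cells that had been frozen and were revived in culture dishes before lysis, with no treatment named. The labels give the genotype and the aorta as the source, and neither the allele, the strain, the age of the mice nor the number of mice. They call the 2 libraries of a group independent extractions. Nothing says that these came from separate cultures or animals, so the p-values measure only the spread between extractions. Each knockout may therefore stand for a single cell population, and genotype and population cannot be told apart in the contrast.

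E12 and E47 are alternative products of the gene Tcf3, also called E2A. They belong to the E proteins, basic helix-loop-helix (bHLH) transcription factors that bind E-box DNA as pairs, with each other or with tissue-specific bHLH partners. Id proteins pair with E proteins but lack the basic region that touches DNA, and so keep them from binding. E proteins are known for driving lymphocyte development and for activating cyclin-dependent kinase (CDK) inhibitors, and in cultured smooth muscle Id proteins are known to promote growth.

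The products differ because the transcript takes in either of 2 neighbouring coding exons that encode the bHLH domain. Both are shown here because they define the contrast, and because a count per gene adds their reads together. They lie on the minus strand of GRCm38 chromosome 10, at chr10:80412827-80413062 for the upstream exon, which encodes the bHLH domain of E12, and at chr10:80410398-80410624 for the downstream exon, which encodes that of E47. In GENCODE M21, 4 of the 12 coding Tcf3 transcripts hold the upstream exon and 6 hold the downstream one. Capitals mark bases that differ between the aligned exons or have no partner.
Tcf3 E12 exon: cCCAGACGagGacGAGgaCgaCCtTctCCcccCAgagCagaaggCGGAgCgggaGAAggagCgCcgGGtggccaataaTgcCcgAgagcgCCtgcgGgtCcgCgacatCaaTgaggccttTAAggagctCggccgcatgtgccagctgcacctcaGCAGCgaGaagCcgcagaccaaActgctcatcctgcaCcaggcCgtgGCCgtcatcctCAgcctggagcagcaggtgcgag
Tcf3 E47 exon: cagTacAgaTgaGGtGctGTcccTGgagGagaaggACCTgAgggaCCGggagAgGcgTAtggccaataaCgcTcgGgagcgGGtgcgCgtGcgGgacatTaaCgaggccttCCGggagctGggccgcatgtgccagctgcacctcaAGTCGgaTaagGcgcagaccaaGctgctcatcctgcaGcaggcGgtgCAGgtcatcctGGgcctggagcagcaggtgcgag
Over 227 aligned bases the exons were identical at 175, or 77.1%. Tcf3 itself had 145 and 143 CPM in E12 KO, against 128 and 128 CPM in E47 KO. Its log2 difference, E12 KO minus E47 KO, was 0.17 ± 0.0627 (SE), adjusted p = 0.032, and the knockout libraries did not overlap. The call was lost with upper quartile scaling, with DESeq2, with no filter on low counts and without any of the 4 libraries in turn. The wild types had 109 and 107 CPM in E12 WT, against 94.5 and 93.7 CPM in E47 WT. Because counts are per gene, they cannot show which exon each knockout had lost, and Tcf3 does not check the labels.

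The knockout libraries held 19532369 and 16086544 counts for E12 KO and 18394466 and 14452545 counts for E47 KO, within the series range of 13909230 to 27517374. Values below are CPM, counts relative to a library's total after TMM scaling, so that a gene's CPM can be set side by side between libraries but not between genes of unequal length. The 2 libraries of each knockout lay close together, with a root mean square log2 distance of 0.303 for E12 KO and 0.300 for E47 KO. The means of the 2 knockouts were 0.977 apart, and those of the 2 wild types 1.14. Acta2, the actin of smooth muscle, had 1626 and 1649.6 CPM in E12 KO, against 2117 and 2098 CPM in E47 KO. Myh11, the smooth muscle myosin heavy chain and a marker of the mature contractile cell, had 2.03 and 2.82 CPM in E12 KO, against 7.43 and 6.42 CPM in E47 KO, and 97.0 and 99.5 CPM in E47 WT. Lymphocyte markers had no gene that passed the filter on low counts. Acta2 was thus abundant in every knockout library, whereas Myh11, a stricter marker of smooth muscle, was low in both knockouts. The log2 difference of Myh11 between the knockouts minus that between the wild types was 2.19. E12 WT was therefore also below E47 WT, and by more than E12 KO was below E47 KO.

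Across the transcriptome the 2 knockouts differed at 52.9% of tested genes. With edgeR's quasi-likelihood test and an adjusted p under 0.05, 3620 of 13992 genes were higher in E12 KO (25.9%) and 3781 were lower (27.0%). The counts called in each gene list below are to be read beside these shares. Many of these differences were small. The median absolute log2 difference of called genes was 0.57, and 3768 of them differed by less than 1.5-fold. Large differences leaned to one side. At 2-fold or more, 634 genes were higher (4.53%) and 1407 lower (10.1%), and at 8-fold or more 65 were higher (0.465%) and 471 lower (3.37%). Values of the 2 knockouts did not overlap at 10697 genes (76.5%), so a lack of overlap, where given below, is what most genes showed. The median log2 difference of all tested genes was -0.01.

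The 10 largest differences in each direction were taken among called genes with more than 3 counts in each knockout and at least 2 CPM on average over the knockout libraries. On the side of E12 KO they were a mixed set. Prl, the hormone prolactin, had 23.5 and 26.6 CPM in the E12 knockout libraries, against 0.208 and 0.134 CPM in the E47 knockout libraries. Myo5c, a myosin motor that carries secretory vesicles, had 30.0 and 30.5 CPM in the E12 knockout libraries, against 0.208 and 0.267 CPM in the E47 knockout libraries. Klhl30, a kelch-repeat protein, had 335 and 325 CPM in the E12 knockout libraries, against 9.20 and 7.75 CPM in the E47 knockout libraries. In each of these 3 genes both E12 KO libraries stood far above both E47 KO libraries. The log2 differences were 7.10 ± 0.284 (SE), adjusted p = 3.0e-11 for Prl, 6.97 ± 0.217 (adjusted p = 2.3e-12) for Myo5c and 5.27 ± 0.105 (adjusted p = 1.5e-14) for Klhl30. Gpr39, a zinc-sensing receptor, had 48.4 and 50.3 CPM in E12 KO, against 1.25 and 1.60 CPM in E47 KO. Other genes overlap 39.9% of its exon bases. Tlr5, the receptor for bacterial flagellin, had 7.24 and 9.55 CPM in E12 KO, against 0.208 and 0.401 CPM in E47 KO. Tnik, a kinase that acts on Wnt target gene activation, had 20.1 and 19.2 CPM in E12 KO, against 0.988 and 1.60 CPM in E47 KO. None of these overlapped between the knockouts. Their log2 differences were 5.13, 4.80 and 3.96, all past the test. Olfr1033, annotated as an olfactory receptor, was at 68.5 and 66.1 CPM in E12 KO, against 2.18 and 2.87 CPM in E47 KO, and Sowahd at 4.68 and 4.63 CPM in E12 KO, against 0.208 and 0.401 CPM in E47 KO. Gpr39 is less certain because of its shared exon bases, and the other pair of the top 10 is uncertain. Pcdhga11 (25.1 and 24.6 CPM in E12 KO, against 0.416 and 0.602 CPM in E47 KO) shares 73.6% of its exon bases with other genes of its cluster, and Rps4l (6.56 and 5.65 CPM in E12 KO, against 0.104 and 0.267 CPM in E47 KO) closely resembles the ribosomal protein gene Rps4x, so reads may have been assigned to either.

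Myo5c was low in both wild types. Its wild-type levels were 0.191 and 0.374 CPM in E12 WT, against 0.287 and 0.156 CPM in E47 WT, all near the E47 KO level, so that E12 KO was the one group with a high value. The log2 difference between knockouts minus that between wild types was 6.54 ± 0.876 (adjusted p = 2.3e-05). Rps4l, uncertain as said, was also low in both, at 0 and 0 CPM in E12 WT, against 0.645 and 0.312 CPM in E47 WT. Tlr5, Olfr1033 and Sowahd were higher in E12 WT than in E47 WT as well, with Sowahd at 4.28 and 3.14 CPM in E12 WT, against 0.0716 and 0.0780 CPM in E47 WT. Tnik went the other way in the wild types, at 1.47 and 1.94 CPM in E12 WT, against 8.74 and 6.94 CPM in E47 WT. So did Pcdhga11, with a log2 difference of -4.64.

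**Figure D1:**
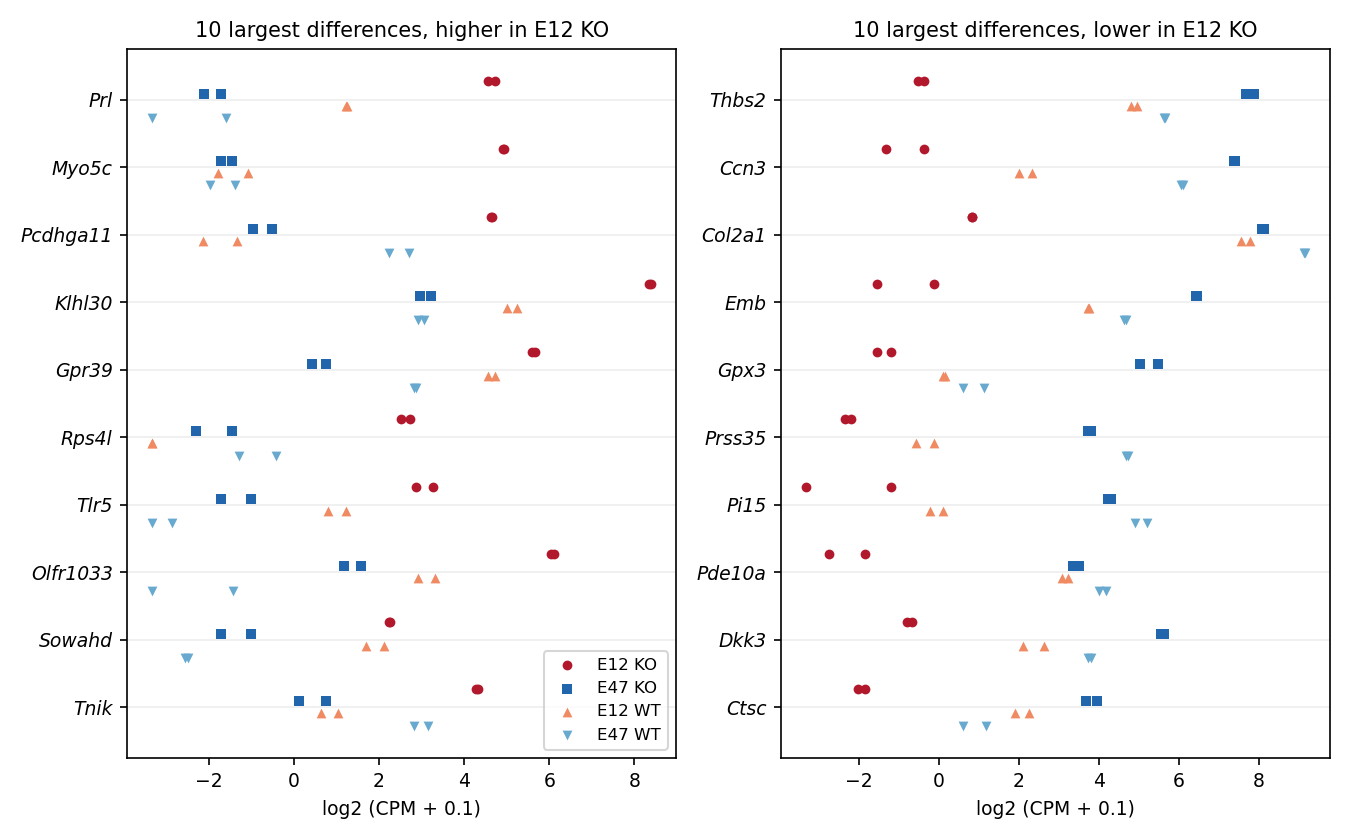
Level of the 10 genes with the largest log2 difference in each direction, among called genes with more than 3 counts in each knockout and at least 2 CPM on average over the knockout libraries, as log2 (CPM + 0.1), in each library of the 4 groups. Each point is 1 library. On the left the E12 KO points lie right of the E47 KO points, as for Klhl30 at 335 and 325 CPM in E12 KO, against 9.20 and 7.75 CPM in E47 KO. On the right they lie at the low end, as for Thbs2 at 0.676 and 0.601 CPM in E12 KO, against 207 and 238 CPM in E47 KO.

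By the same limits, the genes with the largest deficit in E12 KO began with Thbs2, Ccn3 and Col2a1. Thbs2, a thrombospondin that restrains vessel growth, had 0.676 and 0.601 CPM in the E12 knockout libraries, against 207 and 238 CPM in the E47 knockout libraries. Ccn3, a matricellular protein of the CCN family, had 0.676 and 0.300 CPM in the E12 knockout libraries, against 167 and 171 CPM in the E47 knockout libraries. Col2a1, the chain of cartilage type II collagen, had 1.69 and 1.68 CPM in the E12 knockout libraries, against 279 and 270.1 CPM in the E47 knockout libraries. Each of these genes was scarce in both E12 KO libraries and plainly present in both E47 KO libraries. Their log2 differences were -8.42 ± 0.147, -8.36 ± 0.154 and -7.34 ± 0.1196, with adjusted p = 5.8e-15, 7.6e-15 and 5.8e-15. The wild types both carried them, but Ccn3 was far lower in E12 WT, at 4.91 and 3.89 CPM, against 67.2 and 68.7 CPM in E47 WT. Thbs2 was at 27.8 and 31.2 CPM in E12 WT, against 49.9 and 50.3 CPM in E47 WT, and Col2a1 at 189 and 219.5 CPM in E12 WT, against 567 and 571 CPM in E47 WT. For Thbs2 the difference of differences was -7.65 ± 0.190 (adjusted p = 2.9e-13), and E12 KO was below, and E47 KO above, both wild types.

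Emb, a partner protein of monocarboxylate transporters, had 0.821 and 0.240 CPM in E12 KO, against 86.9 and 88.4 CPM in E47 KO. Gpx3, a secreted glutathione peroxidase, had 0.338 and 0.240 CPM in E12 KO, against 32.8 and 44.7 CPM in E47 KO. Dkk3, a secreted protein of the Dickkopf family, had 0.531 and 0.481 CPM in E12 KO, against 46.9 and 49.3 CPM in E47 KO. All 3 showed the same split between the knockouts, with log2 differences of -7.27, -6.997 and -6.54. Ctsc, the lysosomal protease cathepsin C, had 0.145 and 0.1802 CPM in E12 KO, against 12.7 and 15.5 CPM in E47 KO, with the opposite order in the wild types at 3.64 and 4.71 CPM in E12 WT, against 1.43 and 2.18 CPM in E47 WT. Pde10a, a cyclic nucleotide phosphodiesterase, had 0.0483 and 0.1802 CPM in E12 KO, against 11.3 and 10.1 CPM in E47 KO. Prss35 and Pi15, a protease-like and a protease-inhibitor-like secreted protein, were at 0.0965 and 0.1201 CPM in E12 KO, against 13.2 and 13.9 CPM in E47 KO (Prss35) and at 0.338 and 0 CPM in E12 KO, against 19.7 and 18.6 CPM in E47 KO (Pi15). Between the wild types the log2 difference was -5.24 for Prss35 and -5.27 for Pi15. It was smaller for Dkk3 (-1.42), Pde10a (-0.96), Emb (-0.91) and Gpx3 (-0.89, not called).

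Another 11 genes had no count in either E12 KO library and at least 2 CPM on average in E47 KO. Against the limit of 3 counts over the group, Cpxm2, a carboxypeptidase-like protein, was at least 106-fold lower in E12 KO, with 7.85 and 9.43 CPM in E47 KO. Tafa5, a secreted chemokine-like protein, was at least 92.1-fold lower, with 7.07 and 7.82 CPM in E47 KO. Sparcl1, a matrix protein, was at least 49.5-fold lower, with 3.59 and 4.48 CPM in E47 KO. Sparcl1 had no count in any of the 4 wild-type libraries either. Igfbp5, an insulin-like growth factor binding protein, Scin, an actin-severing protein, Rims2, a vesicle release protein, Pamr1, and Bmpr1b, a bone morphogenetic protein receptor, were at least 45.2-fold, 40.4-fold, 40.4-fold, 37.5-fold and 35.3-fold lower. Among the 11, Cpxm2 was plainly present in E12 WT, at 6.76 and 7.55 CPM. Only 1 entry, a predicted gene model, met the mirror condition of no count in E47 KO. These limits cover counting error only, and the number of genes at 0 ran from 11 to 28 when 1 library was left out.

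The 8 most abundant genes that were higher in E12 KO by 2-fold or more are given next, chosen by abundance alone. Dpysl3, which organises actin and microtubules, had 2384 and 2636 CPM in E12 KO, against 605 and 543 CPM in E47 KO. Vcam1, the adhesion molecule that activated smooth muscle displays, had 1974 and 1822 CPM in E12 KO, against 428 and 448 CPM in E47 KO. Fscn1, the actin bundler fascin, had 1244 and 1388 CPM in E12 KO, against 429 and 417 CPM in E47 KO. The log2 differences were 2.13 ± 0.0786, 2.12 ± 0.0730 and 1.64 ± 0.0718, and none of the libraries overlapped. Vcam1 also differed in the wild types, at 2219 and 2071 CPM in E12 WT, against 147 and 138 CPM in E47 WT, whereas Dpysl3 was near the E47 KO level in both, at 593 and 598 CPM in E12 WT, against 464 and 501 CPM in E47 WT. Ezr, which ties actin to the membrane, had a log2 difference of 1.18, Olfml2b, a secreted olfactomedin, 2.18, Nid1, the basement membrane protein nidogen, 1.54, and Tagln2, a transgelin, 1.19. Dst, a linker of cytoskeletal filaments, had 728 and 987 CPM in E12 KO, against 344 and 379.9 CPM in E47 KO, with a log2 difference of 1.24 ± 0.285 (SE), adjusted p = 0.0019 and a wide gap between its own replicates.

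The 8 most abundant genes that were lower by 2-fold or more were chosen in the same way. Timp3, a matrix-bound inhibitor of metalloproteinases, had 1069 and 1131 CPM in E12 KO, against 4436 and 3924 CPM in E47 KO (log2 difference -1.93 ± 0.0808, 21.3% of its exon bases shared with another gene). Ccn2, connective tissue growth factor, had 1708 and 1645 CPM in E12 KO, against 3333 and 3383 CPM in E47 KO (log2 difference -1.002 ± 0.0624). Ecm1, a secreted glycoprotein, had 331 and 313 CPM in E12 KO, against 1117 and 1327 CPM in E47 KO (log2 difference -1.92 ± 0.0878). Each fell in E12 KO relative to E47 KO with no overlap. Cemip, which breaks down hyaluronan, had a log2 difference of -1.20, Itgb5, an integrin chain that activates latent transforming growth factor beta (TGF-beta), -1.24, Serpinb6b, an intracellular serpin, -1.47, and Fbn1, the microfibril protein fibrillin, -1.07. Ndnf, a secreted protein of neural and vascular cells, had 474 and 519.8 CPM in E12 KO, against 1226 and 1203 CPM in E47 KO, and differed the other way in the wild types, at 2405 and 2544 CPM in E12 WT, against 239 and 253 CPM in E47 WT.

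Of 7 tested E and Id protein genes, 1 (Tcf3) was higher in E12 KO and 4 were lower. Tcf4, the E protein E2-2, had 48.2 and 46.7 CPM in the E12 knockout libraries, against 81.5 and 87.5 CPM in the E47 knockout libraries, a log2 difference of -0.83 ± 0.0715 (SE), adjusted p = 1.6e-07. Id3 had 143 and 123 CPM in the E12 knockout libraries, against 239.7 and 282 CPM in the E47 knockout libraries, a log2 difference of -0.97 ± 0.0934 (SE), adjusted p = 5.5e-07. Id2 had 38.1 and 29.1 CPM in the E12 knockout libraries, against 52.4 and 59.4 CPM in the E47 knockout libraries, a log2 difference of -0.72 ± 0.110 (SE), adjusted p = 6.0e-05. In all 3 E12 KO was lower and the libraries did not overlap, as at 76.5% of all tested genes. Id1 was also lower, at 111 and 106 CPM in E12 KO, against 125 and 143 CPM in E47 KO (log2 difference -0.30 ± 0.0782 (SE), adjusted p = 0.0044), but the call was lost without the second E47 KO library, at -0.20. Tcf12, the E protein HEB, at 101 and 101 CPM in E12 KO, against 92.9 and 94.9 CPM in E47 KO, did not pass the test (log2 difference 0.11 ± 0.0662 (SE), adjusted p = 0.18). Id4, at 2.56 and 2.94 CPM in E12 KO, against 3.12 and 3.41 CPM in E47 KO, did not pass either (log2 difference -0.25 ± 0.209 (SE), adjusted p = 0.34). The median of the list was -0.29 between knockouts and -0.34 between wild types, beside a median of -0.01 and 0.00 over all tested genes. Tcf4 differed between the wild types by a log2 difference of -2.37, at 18.6 and 19.5 CPM in E12 WT, against 97.4 and 99.97 CPM in E47 WT.

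Of 6 tested bHLH partners of E proteins, 1 was higher and 1 lower in E12 KO. Twist2, a repressor of mesenchymal differentiation, had 12.4 and 11.4 CPM in E12 KO, against 6.45 and 5.41 CPM in E47 KO (log2 difference 0.99 ± 0.145 (SE), adjusted p = 4.0e-05), with 46.5% of its exon bases shared with another gene. Hand2, a cardiac and limb factor, had no count in E12 KO and 0.312 and 0.134 CPM in E47 KO, and its call was lost without either E12 KO library or without the first E47 KO library.

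**Figure D2:**
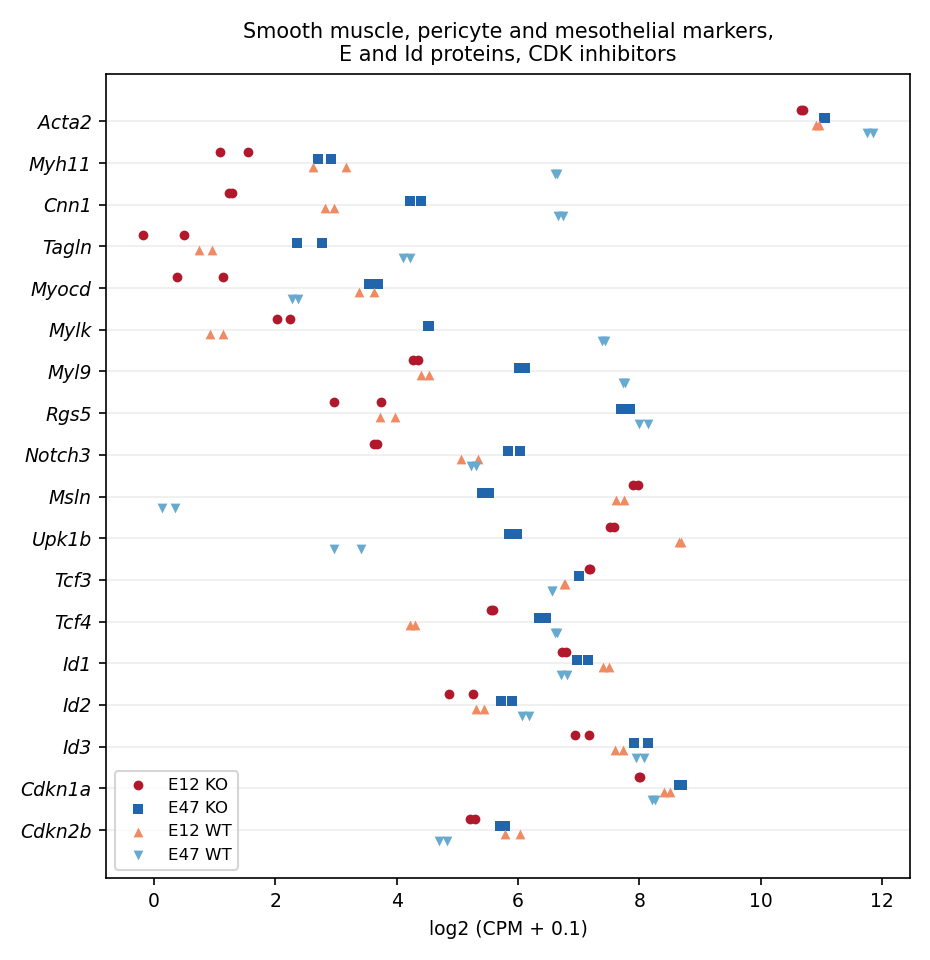
Level of smooth muscle, pericyte and mesothelial markers, E and Id proteins and CDK inhibitors, as log2 (CPM + 0.1), in each library of the 4 groups. Each point is 1 library, and a reader should see E12 KO below E47 KO for Acta2 through Notch3 (Notch3 at 12.7 and 12.3 CPM in E12 KO, against 57.2 and 65.2 CPM in E47 KO) and above it for Msln and Upk1b.

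Proliferation genes were higher in E12 KO almost throughout. Of 36 tested genes of G2 and mitosis, 35 were higher in E12 KO, 15 of them by 2-fold or more, and 1 was lower. Of 38 tested DNA replication genes, 28 were higher, 0 lower and 10 did not pass, with 1 lower without the second E47 KO library. The list medians were 0.96 for G2 and mitosis and 0.56 for replication, beside -0.01 for all tested genes. In the wild types the medians were 0.44 and 0.30, in the same direction.

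Ect2, which drives the contraction of the dividing cell's ring, had 45.5 and 49.9 CPM in the E12 knockout libraries, against 19.1 and 18.98 CPM in the E47 knockout libraries. Ccna2, cyclin A, had 47.9 and 48.2 CPM in the E12 knockout libraries, against 19.7 and 19.99 CPM in the E47 knockout libraries. Bub1b, a spindle checkpoint kinase, had 53.8 and 49.9 CPM in the E12 knockout libraries, against 23.1 and 18.9 CPM in the E47 knockout libraries. Both E12 KO libraries were above both E47 KO libraries in each. Their log2 differences were 1.32 ± 0.0822, 1.28 ± 0.0822 and 1.30 ± 0.0960, with adjusted p = 4.2e-09, 6.4e-09 and 3.0e-08. Kif20a, a kinesin of the central spindle, had 92.9 and 100.4 CPM in E12 KO, against 46.2 and 39.4 CPM in E47 KO (log2 difference 1.17 ± 0.0833, 29.3% exon overlap). Named after their values were seen, Mki67, the proliferation antigen Ki-67, had 147 and 193 CPM in E12 KO, against 42.6 and 42.0 CPM in E47 KO (log2 difference 2.005 ± 0.168), and Gtse1, the list's lower member, 44.2 and 45.7 CPM in E12 KO, against 62.4 and 67.6 CPM in E47 KO (log2 difference -0.53 ± 0.0762). Gtse1 codes for a protein of G2 and S phase that binds p53. For Ccna2 the wild types were at 40.4 and 36.3 CPM in E12 WT, against 30.6 and 32.1 CPM in E47 WT, and the difference of differences was 0.99 ± 0.115 (adjusted p = 5.5e-06).

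Among the replication genes, Mcm6, a subunit of the replicative helicase, had 140.1 and 152 CPM in the E12 knockout libraries, against 68.5 and 69.4 CPM in the E47 knockout libraries, a log2 difference of 1.08 ± 0.0719. Uhrf1, which carries DNA methylation over to new strands, had 65.6 and 74.1 CPM in E12 KO, against 34.0 and 31.7 CPM in E47 KO, a log2 difference of 1.09 ± 0.0802. Rpa1, the binder of single-stranded DNA, and Pola1, the catalytic chain of DNA polymerase alpha, had log2 differences of 0.96 and 0.99. The libraries of the knockouts did not overlap for any of these 4, as at 76.5% of all tested genes. Of 22 G1 cyclin, CDK, E2F and RB family genes, 9 were higher and 6 lower, with a median of 0.17, and 3 were lower without the first E12 KO or the second E47 KO library. Cdk6, a kinase partner of D cyclins, had 136 and 153 CPM in E12 KO, against 61.2 and 60.3 CPM in E47 KO. Myc had 101 and 106 CPM in E12 KO, against 58.9 and 62.2 CPM in E47 KO, Cdk4 259.7 and 245 CPM in E12 KO, against 179.6 and 184 CPM in E47 KO, and E2f8, a repressive E2F factor, 7.96 and 10.4 CPM in E12 KO, against 4.11 and 4.28 CPM in E47 KO. All 4 were higher in E12 KO, by log2 differences of 1.25, 0.77, 0.47 and 1.12.

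Promoter windows of the G2 and mitosis and the replication lists were read for known cell-cycle elements. All members with a window were counted, called or not, so the shares of these lists do not depend on the contrast. A window is the 250 bases before a gene's start in RefSeq on GRCm38.p6. The first promoter shown is that of the G2 and mitosis gene with the lowest p, Ect2 (chr3:27153879-27154128, minus strand, the first of its windows in RefSeq), with the CHR element TTTGAA and the CCAAT box in capitals. The other is that of the replication gene with the lowest p, Mcm6 (chr1:128359706-128359955, minus strand), with E2F sites (TTTGGCGC or TTTCCCGC) and CCAAT boxes in capitals, the boxes reading ATTGG here because they lie on the other strand.
Ect2: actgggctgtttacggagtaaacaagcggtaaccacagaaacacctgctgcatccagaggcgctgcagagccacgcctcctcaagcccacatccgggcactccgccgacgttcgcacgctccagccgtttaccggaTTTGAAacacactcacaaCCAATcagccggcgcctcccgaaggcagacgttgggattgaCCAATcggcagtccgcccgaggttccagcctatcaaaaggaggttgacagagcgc
Mcm6: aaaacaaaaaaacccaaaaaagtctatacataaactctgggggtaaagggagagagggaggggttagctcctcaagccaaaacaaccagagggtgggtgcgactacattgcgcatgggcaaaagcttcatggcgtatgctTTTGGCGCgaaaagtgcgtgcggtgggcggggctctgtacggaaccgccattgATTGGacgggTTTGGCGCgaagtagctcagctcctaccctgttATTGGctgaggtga
Windows existed for 30 of 36 G2 and mitosis genes and 31 of 38 replication genes, and both strands were read. CCAAT was present in 26 of 33 G2 and mitosis windows (78.8%), in 23 of 36 replication windows (63.9%) in 35.6% of the windows of tested genes and in 33.8% of all 32851 windows. TTTGAA was present in 11 of 33 G2 and mitosis windows (33.3%), in 10.7% of the windows of tested genes and in 16.0% of all windows. An E2F site was present in 6 of 36 replication windows (16.7%), in 2.34% of the windows of tested genes and in 1.3% of all windows. The E-box CAGGTG, which E12 and E47 bind, is a form of the general E-box CANNTG and so is counted in it. CAGGTG was present in 2 of 33 G2 and mitosis windows (6.06%) and in 4 of 36 replication windows (11.1%), against 15.1% of the windows of tested genes and 17.2% of all windows. It was present in 21.6% of the windows of genes higher by 2-fold or more in E12 KO and in 18.8% of those lower by 2-fold or more. These are counts of letters in a window and not of bound sites.

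CDK inhibitors brake the cycle and include known E protein targets. Of 6 tested, 3 were lower in E12 KO and none was higher, beside 27.0% lower and 25.9% higher over all tested genes, and the median was -0.18. Cdkn1a, which codes for p21, had 256 and 253 CPM in the E12 knockout libraries, against 403 and 416 CPM in the E47 knockout libraries, a log2 difference of -0.68 ± 0.0647 (SE), adjusted p = 4.5e-07. Cdkn2b, which codes for p15, had 39.0 and 36.6 CPM in the E12 knockout libraries, against 55.3 and 51.9 CPM in the E47 knockout libraries, a log2 difference of -0.50 ± 0.0896 (SE), adjusted p = 2.4e-04. Neither gene's libraries overlapped between the knockouts. Cdkn2d, which codes for p19, was at 12.6 and 13.2 CPM in E12 KO, against 15.8 and 16.2 CPM in E47 KO (adjusted p = 0.024), and its call was lost with DESeq2 and without any of the 4 libraries in turn. Without the first E12 KO library 1 inhibitor was called higher. Cdkn2a (73.5 and 65.1 CPM in E12 KO, against 69.2 and 74.9 CPM in E47 KO), Cdkn1b (89.8 and 84.5 CPM in E12 KO, against 78.4 and 79.6 CPM in E47 KO) and Cdkn2c (30.2 and 31.7 CPM in E12 KO, against 28.1 and 27.1 CPM in E47 KO) did not pass the test, with log2 differences of -0.05, 0.14 and 0.16. Cdkn1c did not pass the filter on low counts. The wild-type levels of Cdkn2b were 65.5 and 55.3 CPM in E12 WT, against 28.3 and 25.7 CPM in E47 WT.

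Of 25 tested p53 target genes, 15 were lower in E12 KO and 7 higher, with a median of -0.39. Cdkn1a belongs to this list as well. Fas, the death receptor, had 31.0 and 28.5 CPM in E12 KO, against 72.1 and 62.4 CPM in E47 KO, a log2 difference of -1.18 ± 0.0882. Ccng1, cyclin G1, had 623 and 654 CPM in E12 KO, against 1165 and 1019 CPM in E47 KO, a log2 difference of -0.78 ± 0.0779. Mdm2, the ubiquitin ligase that limits p53, had 155 and 159.9 CPM in E12 KO, against 261 and 237 CPM in E47 KO, a log2 difference of -0.66 ± 0.0675. The E12 KO libraries lay below the E47 KO libraries for all 3.

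**Figure D3:**
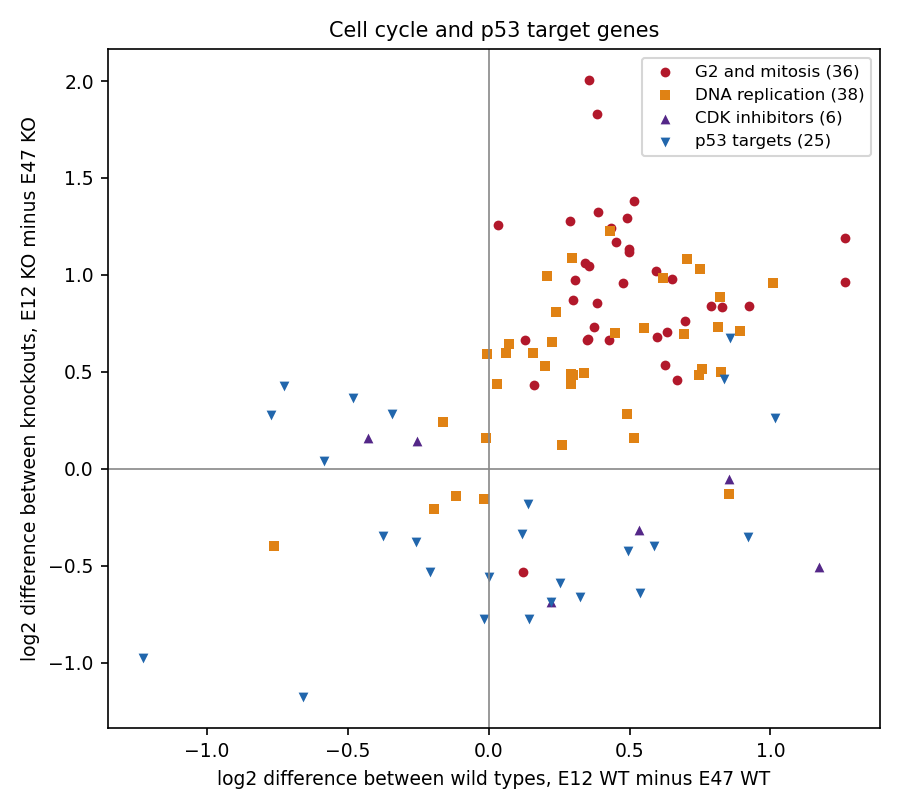
Log2 difference between knockouts (E12 KO minus E47 KO, y axis) against that between wild types (E12 WT minus E47 WT, x axis) for tested genes of 4 lists, each point a gene. The points for G2 and mitosis lie above 0 on the y axis with the exception of Gtse1 at -0.53, and most also lie right of 0 on the x axis. CDK inhibitors called in the knockouts lie below 0.

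Contractile smooth muscle genes were more often lower than higher in E12 KO. Of 30 tested, 16 were lower, 11 of them by 2-fold or more, and 5 were higher, with a median of -0.33 between the knockouts and -0.72 between the wild types. Their summed level overlapped, at 12926 and 13842 CPM in the E12 knockout libraries, against 13134 and 12610.4 CPM in the E47 knockout libraries. Cnn1, calponin, had 2.27 and 2.34 CPM in the E12 knockout libraries, against 21.0 and 18.6 CPM in the E47 knockout libraries, a log2 difference of -3.11 ± 0.133. Mylk, the kinase that triggers contraction, had 4.63 and 3.96 CPM in the E12 knockout libraries, against 22.9 and 23.1 CPM in the E47 knockout libraries, a log2 difference of -2.41 ± 0.109. Myl9, the myosin light chain it acts on, had 19.2 and 20.2 CPM in the E12 knockout libraries, against 69.4 and 64.5 CPM in the E47 knockout libraries, a log2 difference of -1.77 ± 0.0811. All libraries of E12 KO were below those of E47 KO. Between the wild types the log2 differences of Cnn1, Mylk and Myl9 were -3.81, -6.43 and -3.28, larger and in the same direction. Mylk was at 2.11 and 1.79 CPM in E12 WT, below E12 KO, against 166 and 173 CPM in E47 WT. Acta2 differed by -0.36 and Myh11 by -1.54. Myocd, the coactivator that switches on contractile genes, had 1.21 and 2.10 CPM in E12 KO, against 12.8 and 11.5 CPM in E47 KO (log2 difference -2.91 ± 0.203), while the wild types stood in the opposite order at 10.3 and 12.3 CPM in E12 WT, against 4.73 and 5.07 CPM in E47 WT. Tagln, at 1.30 and 0.781 CPM in E12 KO, against 6.76 and 5.01 CPM in E47 KO, is uncertain because 67.9% of its exon bases overlap another gene and strand was not kept. Tagln2, which was higher in E12 KO, is found in many cell types.

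Pericyte markers, some of which smooth muscle also expresses, moved in the same direction. All 9 tested of 11 on the list were lower in E12 KO, with a median of -1.86 and a summed level of 738 and 772 CPM in the E12 knockout libraries, against 1440.0 and 1569.7 CPM in the E47 knockout libraries. Between the wild types the median was -1.46, with sums of 989 and 1127 CPM in E12 WT, against 1701 and 1811 CPM in E47 WT. Higd1b, a further pericyte marker, had no count in either knockout. Rgs5, a regulator of G protein signalling, had 13.2 and 7.75 CPM in E12 KO, against 230.3 and 206 CPM in E47 KO (log2 difference -4.36 ± 0.156). Mcam, an adhesion molecule, had 100.1 and 99.1 CPM in E12 KO, against 321 and 314 CPM in E47 KO, Notch3 12.7 and 12.3 CPM in E12 KO, against 57.2 and 65.2 CPM in E47 KO, and Pdgfrb, the receptor that platelet-derived growth factor acts through, 425 and 429.8 CPM in E12 KO, against 569 and 666 CPM in E47 KO. Each was lower with no overlap, which held at 76.5% of all tested genes. The part of pericytes in the contractile differences was not tested. Bulk libraries cannot tell fewer cells of a type from less RNA per cell.

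Of 20 genes of modulated smooth muscle, the state taken up by cells that leave the contractile programme, 6 were higher and 9 lower, with a median of -0.17. Vcam1, described above, was among the higher. Tnfrsf11b, the decoy receptor osteoprotegerin, had 8.45 and 7.57 CPM in E12 KO, against 244 and 237 CPM in E47 KO (log2 difference -4.90 ± 0.0861). Ly6a, the surface antigen Sca-1, had 15.9 and 15.0 CPM in E12 KO, against 110.0 and 118 CPM in E47 KO (log2 difference -2.88 ± 0.0981), and Cd34, a progenitor antigen, 1.40 and 0.961 CPM in E12 KO, against 18.1 and 18.1 CPM in E47 KO (log2 difference -3.91 ± 0.150). Ly6a and Cd34 also stand on the list of adventitial fibroblast markers.

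More structural matrix genes were lower than higher in E12 KO in each of 3 families. Of 25 tested collagen chains, 14 were lower and 3 higher (median -0.47). Of 20 genes of elastic fibres and cross-linking, 15 were lower and 1 higher (median -0.85), or 2 higher without the second E47 KO library. Of 25 proteoglycan and matricellular genes, 18 were lower and 3 higher (median -0.99). The median over all tested genes was -0.01, so each family lay below it. Summed levels did not all follow. Collagen chains summed to 31619 and 35003 CPM in the E12 knockout libraries, against 30357 and 32012 CPM in the E47 knockout libraries, and these overlapped. Elastic fibre genes summed to 13509 and 14186 CPM in the E12 knockout libraries, against 17085 and 17856 CPM in the E47 knockout libraries, and proteoglycan and matricellular genes to 22573 and 24002 CPM in the E12 knockout libraries, against 34302 and 36122 CPM in the E47 knockout libraries, both with no overlap. The matching medians between the wild types were -0.41 for collagens, -0.22 for elastic fibre genes and -0.77 for proteoglycans.

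The type VI collagen chains, which form beaded filaments around cells, were lower together. Col6a3 had 4.20 and 4.63 CPM in E12 KO, against 74.7 and 88.8 CPM in E47 KO (log2 difference -4.21 ± 0.135). Col6a2 had 141 and 139 CPM in E12 KO, against 483 and 514 CPM in E47 KO (log2 difference -1.83 ± 0.0656), and Col6a1 352 and 345 CPM in E12 KO, against 912 and 949 CPM in E47 KO (log2 difference -1.42 ± 0.0639). Elastic fibre genes followed. Ltbp2, a microfibril protein, had 0.628 and 0.421 CPM in E12 KO, against 34.1 and 39.8 CPM in E47 KO, and Mfap5, another, 0.434 and 0.3604 CPM in E12 KO, against 23.6 and 27.7 CPM in E47 KO. Loxl1, which cross-links elastin, had 93.7 and 89.6 CPM in E12 KO, against 212 and 225 CPM in E47 KO and Fbln5, which guides elastin onto microfibrils, 882 and 847 CPM in E12 KO, against 1597 and 1674 CPM in E47 KO. None of these overlapped, with log2 differences of -6.09 for Ltbp2, -5.97 for Mfap5, -1.25 for Loxl1 and -0.92 for Fbln5. Among matricellular genes besides Thbs2 and Ccn3, Postn, periostin, had 0.869 and 0.901 CPM in E12 KO, against 66.3 and 74.3 CPM in E47 KO (log2 difference -6.30 ± 0.133), and Ccn5, a growth-restraining CCN protein, 30.7 and 27.0 CPM in E12 KO, against 823 and 870.4 CPM in E47 KO (log2 difference -4.87 ± 0.0847). Postn had 0.893 and 1.05 CPM in E12 WT, against 302 and 294 CPM in E47 WT, a log2 difference of -8.26. Between the wild types it was -2.33 for Ccn5, -2.36 for Col6a3, -2.69 for Ltbp2, -2.48 for Mfap5 and -2.41 for Fbln5. It was smaller for Loxl1 (-0.41), Col6a1 (-0.20) and Col6a2 (-0.11, not called).

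Of 27 tested laminin, nidogen and integrin genes, 17 were lower and 7 higher (median -0.96). Lama4, a laminin chain of vessel basement membranes, had 6.81 and 7.87 CPM in E12 KO, against 49.6 and 46.7 CPM in E47 KO. Itga9 had 0.290 and 0.421 CPM in E12 KO, against 11.4 and 11.6 CPM in E47 KO and Itga6, a laminin receptor chain, 9.99 and 8.53 CPM in E12 KO, against 31.7 and 31.1 CPM in E47 KO. All 3 were lower in E12 KO, while Nid1 was higher. Between the wild types the log2 difference was -3.55 for Lama4, -4.90 for Itga9, 0.51 for Itga6 and 0.77 for Nid1. Of 25 matrix proteases and inhibitors, 14 were lower and 5 higher (median -0.51). Serpine2, a thrombin inhibitor, had 0.821 and 1.08 CPM in E12 KO, against 58.4 and 64.3 CPM in E47 KO, with the opposite order in the wild types at 29.7 and 29.8 CPM in E12 WT, against 12.2 and 12.6 CPM in E47 WT. Mmp17 had 1.11 and 0.661 CPM in E12 KO, against 13.3 and 12.9 CPM in E47 KO, and Mmp19 7.34 and 5.77 CPM in E12 KO, against 27.1 and 34.7 CPM in E47 KO with 28.3% of its exon bases shared. Of 16 genes of bone and cartilage formation, 11 were lower and 4 higher (median -1.66, and -1.05 between wild types). Sox9, the master factor of cartilage, had 43.4 and 44.8 CPM in E12 KO, against 107 and 112 CPM in E47 KO (log2 difference -1.31 ± 0.0696), and Acan, the cartilage proteoglycan, 2.65 and 3.42 CPM in E12 KO, against 21.1 and 21.99 CPM in E47 KO (log2 difference -2.84 ± 0.179). Ank, a pyrophosphate exporter that holds back calcification, had 75.4 and 74.3 CPM in E12 KO, against 116 and 119.6 CPM in E47 KO (log2 difference -0.65 ± 0.0683).

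Adventitial fibroblast markers, which include matrix genes, were lower as well. Of 15 tested among 17 listed, 11 were lower and 2 higher (median -1.41, and -0.96 between wild types). Their summed level was 790.4 and 770.2 CPM in the E12 knockout libraries, against 1338 and 1391 CPM in the E47 knockout libraries. Scara5, a ferritin receptor of such cells, was at 0.0483 and 0.1201 CPM in E12 KO, against 11.1 and 11.6 CPM in E47 KO, with 3 counts in all in E12 KO. The part of these cells in the matrix differences was not tested.

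**Figure D4:**
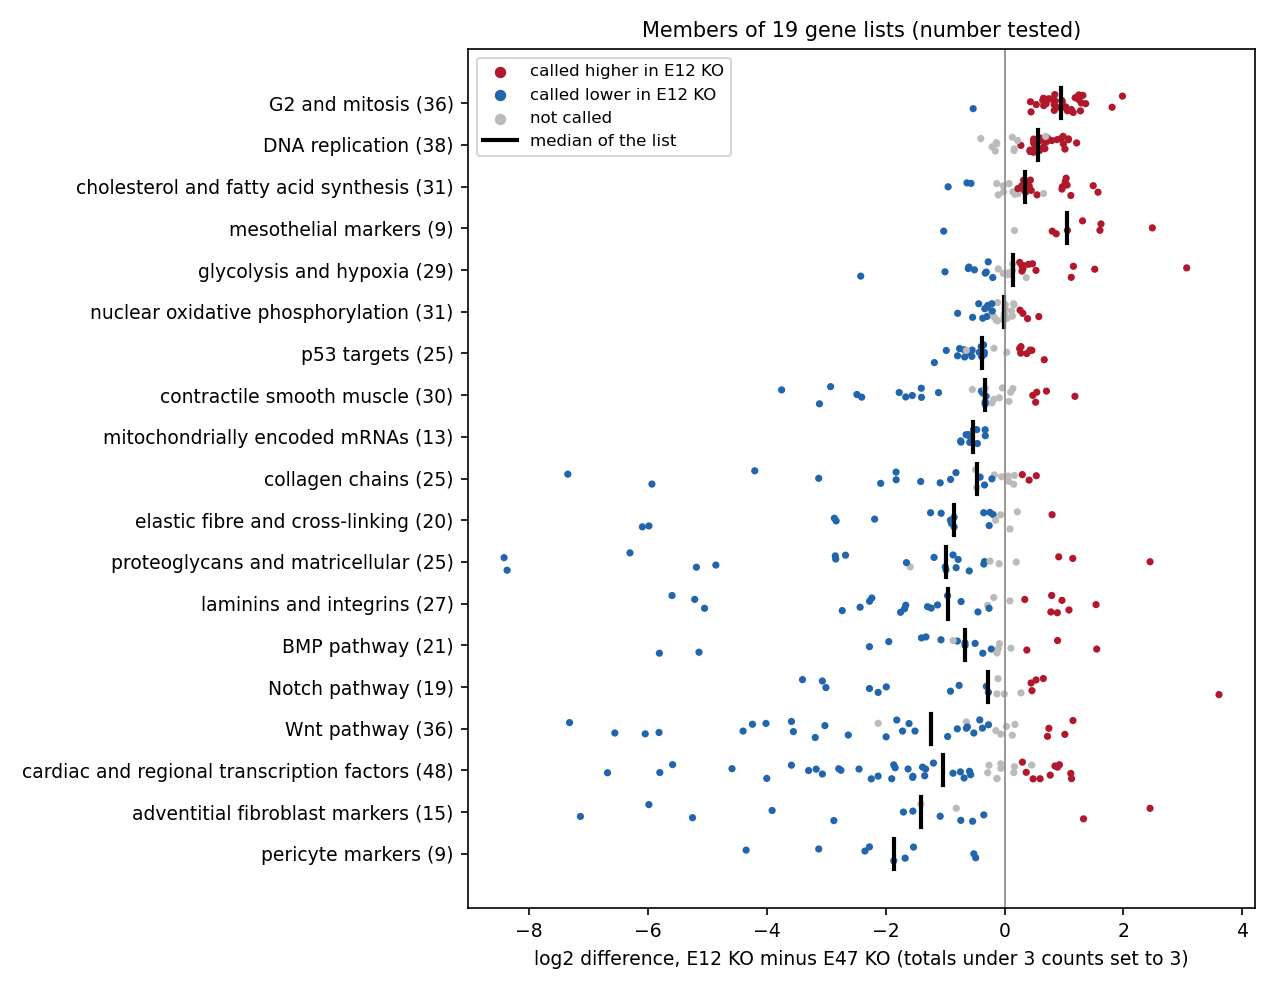
Log2 difference, E12 KO minus E47 KO, of each tested member of 19 gene lists, with group totals under 3 counts set to 3. Each point is a gene, coloured by its call, and the black bar is the list's median. G2 and mitosis (0.96) and mesothelial markers (1.06) have the highest medians of the lists plotted, and pericyte (-1.86) and adventitial (-1.41) markers the lowest.

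Wnt pathway genes were mostly lower in E12 KO. Of 36 tested Wnt pathway genes, 25 were lower, 17 of them by 2-fold or more, and 4 higher (median -1.23, and -0.37 between wild types). Sfrp1, a secreted Wnt antagonist, had 1.88 and 1.98 CPM in E12 KO, against 111 and 105 CPM in E47 KO (log2 difference -5.81 ± 0.103). Wif1, another, had 0.0965 and 0.0601 CPM in E12 KO, against 12.3 and 13.5 CPM in E47 KO, with 3 counts in all in E12 KO. Rspo2, which enhances Wnt signals, had 0.145 and 0.240 CPM in E12 KO, against 12.5 and 12.3 CPM in E47 KO (log2 difference -5.99 ± 0.236). Antagonists and an enhancer were thus lower together.

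Of 22 TGF-beta pathway genes, 10 were lower (45.5%) and 6 higher (27.3%), with a median of 0.00. Over all tested genes 27.0% were lower and 25.9% higher. Eng, the coreceptor endoglin, had 4.44 and 4.33 CPM in E12 KO, against 211 and 215 CPM in E47 KO (log2 difference -5.60 ± 0.104). Lrrc32, which displays latent TGF-beta, had 1.54 and 1.20 CPM in E12 KO, against 24.9 and 23.7 CPM in E47 KO. Inhbb, an activin subunit, had 27.2 and 25.2 CPM in E12 KO, against 108 and 107 CPM in E47 KO, and Fst, the activin antagonist follistatin, 12.6 and 12.4 CPM in E12 KO, against 38.3 and 35.1 CPM in E47 KO. All 4 were lower in E12 KO. Of 21 genes of the bone morphogenetic protein pathway, 13 were lower and 3 higher (median -0.66). Bmp4, a ligand, had 93.4 and 93.1 CPM in E12 KO, against 254 and 235 CPM in E47 KO, and Smad6, an inhibitory transducer, 51.5 and 49.3 CPM in E12 KO, against 123 and 130.1 CPM in E47 KO. Bmper, an extracellular modulator, had 3.62 and 3.24 CPM in E12 KO, against 17.5 and 15.7 CPM in E47 KO. Gdf6, another ligand, was higher, at 118 and 125 CPM in E12 KO, against 41.4 and 41.4 CPM in E47 KO. Their log2 differences were -1.39 for Bmp4, -1.33 for Smad6, -2.27 for Bmper and 1.56 for Gdf6. Id genes are textbook targets of this pathway.

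Of 19 Notch pathway genes, 10 were lower (52.6%) and 5 higher (26.3%), beside 27.0% and 25.9% over all tested genes (median -0.27). Besides Notch3, the receptor that arterial smooth muscle uses, Jag1, its ligand, had 207 and 219 CPM in E12 KO, against 383 and 420.3 CPM in E47 KO, and Hey2, a target gene, 6.28 and 8.41 CPM in E12 KO, against 27.5 and 30.3 CPM in E47 KO. Ligand, receptor and target were all lower, with log2 differences of -0.91, -2.28 and -1.99. Dlk1, a non-canonical ligand that is also imprinted, was higher at 14.2 and 11.2 CPM in E12 KO, against 0.884 and 1.27 CPM in E47 KO (log2 difference 3.59 ± 0.2202). Of 31 growth factor, receptor and binding protein genes, 17 were lower and 9 higher (median -0.35). Igf1, insulin-like growth factor 1, had 141 and 149.8 CPM in E12 KO, against 417 and 380.3 CPM in E47 KO. Its binding proteins Igfbp2 and Igfbp3 had 48.3 and 51.9 CPM in E12 KO, against 955 and 948 CPM in E47 KO (Igfbp2), and 74.4 and 66.0 CPM in E12 KO, against 254 and 297 CPM in E47 KO (Igfbp3). Ligand and binding proteins were lower in E12 KO. Kit, the stem cell factor receptor, was higher, at 22.3 and 24.3 CPM in E12 KO, against 1.72 and 3.07 CPM in E47 KO (log2 difference 3.32 ± 0.181), and under 1 CPM in all wild-type libraries.

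Inflammatory genes were lower more often than higher. Of 16 cytokines and chemokines, 9 were lower and 2 higher (median -0.83), and 1 was higher without the first E12 KO or the first E47 KO library. Il33, an alarm cytokine, had 43.3 and 39.8 CPM in E12 KO, against 119 and 116 CPM in E47 KO and Il6 0.386 and 0.481 CPM in E12 KO, against 5.09 and 4.01 CPM in E47 KO. Csf1, the macrophage growth factor, had 596 and 629 CPM in E12 KO, against 1077 and 1039 CPM in E47 KO, and Ccl7, a monocyte attractant, 1.06 and 0.841 CPM in E12 KO, against 7.43 and 6.22 CPM in E47 KO. None of the 4 overlapped, and neither did 76.5% of all tested genes. In the wild types Il33 was at 2.68 and 2.39 CPM in E12 WT, against 0.645 and 0.663 CPM in E47 WT, so both knockouts were above both. Of 33 interferon-stimulated genes, 16 were lower and 6 higher (median -0.45). The peptide transporter genes Tap1 and Tap2 were lower, with log2 differences of -1.14 and -1.57, as was Ifit3, which has a close copy, with -1.69. H2-K1, a class I histocompatibility gene with close relatives, was higher, with 0.997.

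Of 30 immediate early genes, which answer growth signals within the hour, 15 were lower and 6 higher (median -0.23). Ptgs2, cyclooxygenase-2, had 82.3 and 82.7 CPM in E12 KO, against 260.1 and 236 CPM in E47 KO, with the reverse order in the wild types at 382 and 416 CPM in E12 WT, against 83.6 and 92.1 CPM in E47 WT. Egr2 had 2.32 and 2.04 CPM in E12 KO, against 10.7 and 10.1 CPM in E47 KO. Spry1 and Spry4, feedback inhibitors of receptor tyrosine kinases, were higher, at 52.95 and 53.6 CPM in E12 KO, against 16.2 and 17.5 CPM in E47 KO (Spry1, 24.4% exon overlap), and 43.9 and 45.7 CPM in E12 KO, against 17.8 and 18.7 CPM in E47 KO (Spry4). Their log2 differences were -1.59 for Ptgs2, -2.25 for Egr2, 1.66 for Spry1 and 1.30 for Spry4.

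Lipid synthesis genes leaned towards E12 KO. Of 31 tested genes of cholesterol and fatty acid synthesis, 19 were higher and 3 lower (median 0.34, and also 0.34 between the wild types). Insig1, which holds the sterol sensor in place, had 172 and 169 CPM in E12 KO, against 61.9 and 59.4 CPM in E47 KO (log2 difference 1.49 ± 0.0711). Cyp51, a step on the way to cholesterol, had 142 and 157 CPM in E12 KO, against 75.1 and 69.1 CPM in E47 KO, and Scd1, which desaturates fatty acids, 292 and 334 CPM in E12 KO, against 156 and 149 CPM in E47 KO. Sqle, the squalene oxidase of the same route, differed the other way, at 73.6 and 70.8 CPM in E12 KO, against 141 and 138 CPM in E47 KO (log2 difference -0.95 ± 0.0659).

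In glycolysis and the hypoxia response, 12 of 29 genes were higher and 9 lower (median 0.14). Slc16a3, the lactate exporter, had 87.0 and 86.9 CPM in the E12 knockout libraries, against 9.62 and 11.4 CPM in the E47 knockout libraries, a log2 difference of 3.06 ± 0.0970. Hk2, the first enzyme of glycolysis, had 138 and 136 CPM in E12 KO, against 46.5 and 49.3 CPM in E47 KO. Ndrg1, a hypoxia-induced stress gene, was lower, at 15.2 and 12.9 CPM in E12 KO, against 73.0 and 79.5 CPM in E47 KO, and P4ha2, which hydroxylates collagen, at 71.4 and 68.5 CPM in E12 KO, against 137 and 146 CPM in E47 KO. The list therefore held called members on both sides, 41.4% higher and 31.0% lower, beside 25.9% and 27.0% over all tested genes. These 4 genes, the lowest in p of the list, did not overlap between the knockouts, and neither did 76.5% of all tested genes. Of 28 unfolded protein and stress genes, 13 were lower and 5 higher (median -0.19). The log2 difference was -2.75 for Vldlr, a lipoprotein receptor, -1.27 for Atf3, a stress factor, -0.80 for Dnajb9, a chaperone, and -0.65 for Creld2.

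All 13 mitochondrially encoded mRNAs were lower in E12 KO, with a median of -0.54, and 8 were called lower without the second E12 KO library. Between the wild types the median of these mRNAs was -0.51, in the same direction. Mitochondrial transcripts took 0.892% and 0.798% of counts in E12 KO, against 1.18% and 1.11% in E47 KO. In the wild types they took 1.11% and 1.38% in E12 WT, against 2.13% and 1.73% in E47 WT. The part of this share in the counts above was not tested. mt-Nd2, a subunit of respiratory complex I, had 586 and 527 CPM in E12 KO, against 958 and 901 CPM in E47 KO. mt-Nd4 and mt-Nd6, of the same complex, and mt-Atp6, of ATP synthase, had log2 differences of -0.73, -0.66 and -0.62. Nuclear genes of oxidative phosphorylation were split. Of 31 tested, 4 were higher (12.9%), 10 lower (32.3%) and 17 did not pass (median -0.01). Over all tested genes 25.9% were higher and 27.0% lower. Without the second E12 KO library 4 were lower, and without the second E47 KO library 6. The log2 difference was 0.58 for Atp5a1, an ATP synthase subunit, 0.39 for Ndufs1 of complex I, -0.80 for Cox6c and -0.45 for Ndufb10.

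Transcription factors that mark regions of the heart and body were mostly lower in E12 KO. Of 48 tested cardiac and regional transcription factors, 29 were lower in E12 KO, 24 of them by 2-fold or more, and 10 higher (median -1.03, and -0.25 between wild types). Tbx1, a factor of the outflow region of the heart, had 0.0483 and 0 CPM in E12 KO, against 7.95 and 8.62 CPM in E47 KO, with a single count in E12 KO. Foxd1, a stromal factor, had 0.531 and 0.901 CPM in E12 KO, against 39.3 and 38.2 CPM in E47 KO (log2 difference -5.78 ± 0.159). Prrx1, a mesenchymal homeobox factor, had 55.4 and 49.7 CPM in E12 KO, against 159 and 168 CPM in E47 KO, and Tbx18, a mural cell factor, 22.4 and 26.5 CPM in E12 KO, against 62.9 and 59.7 CPM in E47 KO. Foxd1, Prrx1 and Tbx18 were all lower in E12 KO, and Tbx18 shares 20.6% of its exon bases.

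Of 23 tested Hox genes, which mark position along the body axis, 10 were lower and 5 higher (median -0.13), and 3 were higher without the second E12 KO library and 2 without the first E47 KO library. Hoxb9 had 0.531 and 0.421 CPM in the E12 knockout libraries, against 18.7 and 18.7 CPM in the E47 knockout libraries, a log2 difference of -5.26 ± 0.177 (SE), adjusted p = 4.7e-12. Its wild-type levels were 24.2 and 25.0 CPM in E12 WT, against 31.3 and 29.3 CPM in E47 WT, so that E12 KO stood apart from the other 3 groups. Hoxb8 had 16.8 and 16.5 CPM in E12 KO, against 44.8 and 48.3 CPM in E47 KO and Hoxa7 7.10 and 8.29 CPM in E12 KO, against 31.2 and 34.1 CPM in E47 KO with 20.4% exon overlap. Hoxa5 was higher, at 50.6 and 49.6 CPM in E12 KO, against 23.8 and 27.0 CPM in E47 KO. Of 41 genes of axon guidance, many of which also steer vessels, 21 were lower and 6 higher (median -0.32). Slit3, a secreted guidance cue, had 10.1 and 8.41 CPM in E12 KO, against 232 and 259 CPM in E47 KO, and Robo1, a receptor for such cues, 0.917 and 0.841 CPM in E12 KO, against 31.6 and 31.7 CPM in E47 KO. Ligand and receptor were lower together, with log2 differences of -4.72 and -5.15. Sema3c and Sema3d, semaphorins of heart and vessel formation, had log2 differences of -2.58 and -2.45.

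Clustered protocadherins, cell adhesion genes of which a cell switches on only some, went both ways. Of 32 tested, 17 were lower and 9 higher (median -0.69). Pcdhb16 had 47.3 and 44.3 CPM in E12 KO, against 10.5 and 10.5 CPM in E47 KO. Pcdhgb6 had 0.724 and 0.901 CPM in E12 KO, against 29.8 and 30.0 CPM in E47 KO and Pcdhgb5 0.290 and 0.481 CPM in E12 KO, against 10.3 and 10.1 CPM in E47 KO, with 45.2% and 31.5% of exon bases shared with cluster neighbours. Of 23 ion channels and transporters, 10 were lower and 4 higher. Cacna1g, a T-type calcium channel, had 1.79 and 2.16 CPM in E12 KO, against 27.7 and 27.3 CPM in E47 KO, and Trpv4, a stretch and osmotic sensor, 3.33 and 3.30 CPM in E12 KO, against 14.3 and 16.4 CPM in E47 KO. Both were lower in E12 KO and stood the other way in the wild types, with log2 differences of 2.01 and 2.08. Between the knockouts Slc40a1, the iron exporter, had a log2 difference of 2.51.

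Of 21 imprinted genes, 10 were lower and 3 higher (median -0.84), and 5 were higher without the first E12 KO library. Neighbours in a single imprinted region did not go the same way. Meg3 and Rian, noncoding RNAs of the maternal copy, had 4.83 and 3.42 CPM in E12 KO, against 35.3 and 34.5 CPM in E47 KO (Meg3), and 12.5 and 13.6 CPM in E12 KO, against 54.6 and 51.1 CPM in E47 KO (Rian). Dlk1, from the paternal copy, was higher in E12 KO. The log2 differences were -3.06, -2.02 and 3.59. Sgce, elsewhere in the genome, had a log2 difference of -1.10.

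Markers of other cell types were measured as a check on the cultures. Mesothelial markers were higher in E12 KO, with 7 of 9 tested (among 12 listed) higher and 1 lower (median 1.06, and 5.12 between wild types), and a summed level of 1098 and 1131 CPM in the E12 knockout libraries, against 555 and 571 CPM in the E47 knockout libraries. Msln, mesothelin, had 253 and 237 CPM in E12 KO, against 42.4 and 45.7 CPM in E47 KO, and 214 and 196 CPM in E12 WT, against 1.003 and 1.17 CPM in E47 WT. Upk1b, a uroplakin, had 182 and 191 CPM in E12 KO, against 62.9 and 57.4 CPM in E47 KO, Lrrn4 21.4 and 23.8 CPM in E12 KO, against 6.50 and 8.56 CPM in E47 KO and Gpm6a 207 and 217 CPM in E12 KO, against 122 and 120.1 CPM in E47 KO. Msln was lowest in E47 WT and plainly present in the other 3 groups. The part of mesothelial RNA in the differences above was not tested.

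Endothelial markers were low in the knockouts, with a summed level of 32.1 and 31.0 CPM in the E12 knockout libraries, against 26.6 and 24.4 CPM in the E47 knockout libraries. In the wild types the sums were 49.5 and 51.0 CPM in E12 WT, against 888 and 799 CPM in E47 WT, so the sum was highest in E47 WT. The median fitted log2 difference between the wild types was -6.17, with no limit set for low counts. Their part in the wild-type differences was not tested. Of 17 tested, 2 were higher, Flt1 (23.0 and 22.8 CPM in E12 KO, against 15.3 and 16.4 CPM in E47 KO) and Kdr (3.28 and 3.36 CPM in E12 KO, against 1.14 and 0.468 CPM in E47 KO), and 1 was lower. That was Erg, at 0 and 0.0601 CPM in E12 KO, against 2.91 and 1.14 CPM in E47 KO. Without the second E47 KO library 2 were lower. Of 4 macrophage markers, 1 was lower (Lyz2, 0.241 and 0.0601 CPM in E12 KO, against 2.03 and 1.47 CPM in E47 KO). Of 8 epithelial markers, 2 were higher and 3 lower. Krt14 had 6.13 and 7.81 CPM in E12 KO, against 1.09 and 0.668 CPM in E47 KO, Cdh1, E-cadherin, 16.2 and 19.7 CPM in E12 KO, against 34.3 and 38.4 CPM in E47 KO, Pkp1 37.9 and 36.0 CPM in E12 KO, against 71.1 and 66.3 CPM in E47 KO and Perp 149.6 and 147 CPM in E12 KO, against 194 and 195 CPM in E47 KO. No single direction held among them.

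Some markers of fat, nerve sheath and striated muscle were higher in E12 KO. Pparg, the master factor of fat cells, had 27.0 and 27.7 CPM in E12 KO, against 5.30 and 4.95 CPM in E47 KO (log2 difference 2.41 ± 0.113), while Lpl, lipoprotein lipase, was lower at 0.0965 and 0.1802 CPM in E12 KO, against 1.35 and 1.40 CPM in E47 KO. They were the called pair of 5 adipocyte markers. Mbp, myelin basic protein, had 41.9 and 36.6 CPM in E12 KO, against 8.004 and 7.02 CPM in E47 KO (log2 difference 2.38 ± 0.114), and S100b 4.59 and 4.09 CPM in E12 KO, against 9.67 and 10.4 CPM in E47 KO, out of 4 Schwann cell markers. Tnnt2, a troponin that smooth muscle cultures can express, had 77.5 and 76.9 CPM in E12 KO, against 11.95 and 11.3 CPM in E47 KO (log2 difference 2.73 ± 0.0919), as the called gene of 2 striated muscle markers.

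The Y-linked genes Kdm5d, Eif2s3y, Uty and Ddx3y were present in every library. Of 5 tested sex-specific genes, 3 were higher in E12 KO. Kdm5d had 45.0 and 45.8 CPM in E12 KO, against 28.5 and 25.4 CPM in E47 KO (log2 difference 0.75 ± 0.0864), Eif2s3y 44.3 and 46.6 CPM in E12 KO, against 34.9 and 36.7 CPM in E47 KO and Uty 23.6 and 26.7 CPM in E12 KO, against 20.4 and 16.4 CPM in E47 KO, whose call was lost without the second E47 KO library. Ddx3y, at 85.0 and 84.9 CPM in E12 KO, against 103 and 89.97 CPM in E47 KO, did not pass (adjusted p = 0.064). Xist, which silences an X chromosome in female cells, was at or under 0.12 CPM in each knockout library and had 0 and 0.0747 CPM in E12 WT, against 7.31 and 7.72 CPM in E47 WT. The E47 WT libraries thus held both Xist and Y transcripts.

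The 2 wild types differed from each other as well. With E12 WT set against E47 WT, 3892 genes were higher (27.8%) and 3855 lower (27.6%), 1180 (8.43%) and 1316 (9.41%) of them by 2-fold or more. The 2 differences share no library and can be set side by side. Some lists above were given without their wild-type median. It was -1.33 for clustered protocadherins, -0.82 for imprinted genes, -0.70 for interferon-stimulated genes and -0.59 for Hox genes. It was 0.38 for CDK inhibitors, 0.31 for nuclear oxidative phosphorylation genes, 0.28 for immediate early genes and 0.12 for p53 targets. The knockout and the wild-type difference were both called in the same direction at 3061 genes (21.9%) and in opposite directions at 1546 (11%). Another 2794 (20%) were called between the knockouts and not between the wild types. Of the 2041 genes that differed by 2-fold or more between the knockouts, 1078 were called in the same direction between the wild types (7.7% of all tested genes), 384 in the opposite direction (2.74%), and 579 were not called there (4.14%). The knockout difference itself differed from the wild-type difference at 6800 genes (48.6%), of which 3207 were positive (22.9%) and 3593 negative (25.7%).

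Whole chromosomes stood apart from the others in their median. Over 378 tested genes of chromosome 18 the median log2 difference was 0.38, with 57.7% called higher and 15.1% lower, and over 809 genes of chromosome 1 it was 0.26 (46.2% higher, 16.2% lower). On chromosomes 9 and 15 the medians were both -0.25, with 12.6% higher and 44.6% lower on chromosome 9 and 13.5% higher and 46.0% lower on chromosome 15. Among the autosomes and the X chromosome these 4 were more than 0.2 from the median of all tested genes, a limit set after the values were seen. The 24 tested mitochondrial genes had a median of -0.33 and the 8 tested Y-linked genes 0.19, also past it. In consecutive blocks of at least 60 tested genes the medians ran from 0.13 to 0.49 along chromosome 18, from 0.12 to 0.51 along chromosome 1, from -0.41 to -0.09 along chromosome 9 and from -0.38 to -0.16 along chromosome 15. The blocks of a chromosome all had 1 sign on these 4 and on 5 of the other autosomes. With no filter on low counts 1 of the autosomes and the X chromosome passed the limit.

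Relative to the mean of all 8 libraries, the median of chromosome 18 was 0.36 and 0.35 in the E12 KO libraries, against -0.01 and -0.03 in the E47 KO libraries, and -0.18 and -0.17 in E12 WT, against -0.14 and -0.12 in E47 WT. For chromosome 1 the medians were 0.22 and 0.24 in E12 KO and -0.01 and -0.01 in E47 KO, and between -0.14 and -0.05 in the wild-type libraries. On both, E12 KO was the group set apart. Chromosomes 11 and 19 differed between the wild types, by medians of 0.30 and 0.37. Dpysl3, the most abundant of the 2-fold genes higher in E12 KO, and the clustered protocadherins lie on chromosome 18, and Gpr39 and Mcm6 on chromosome 1.

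**Figure D5:**
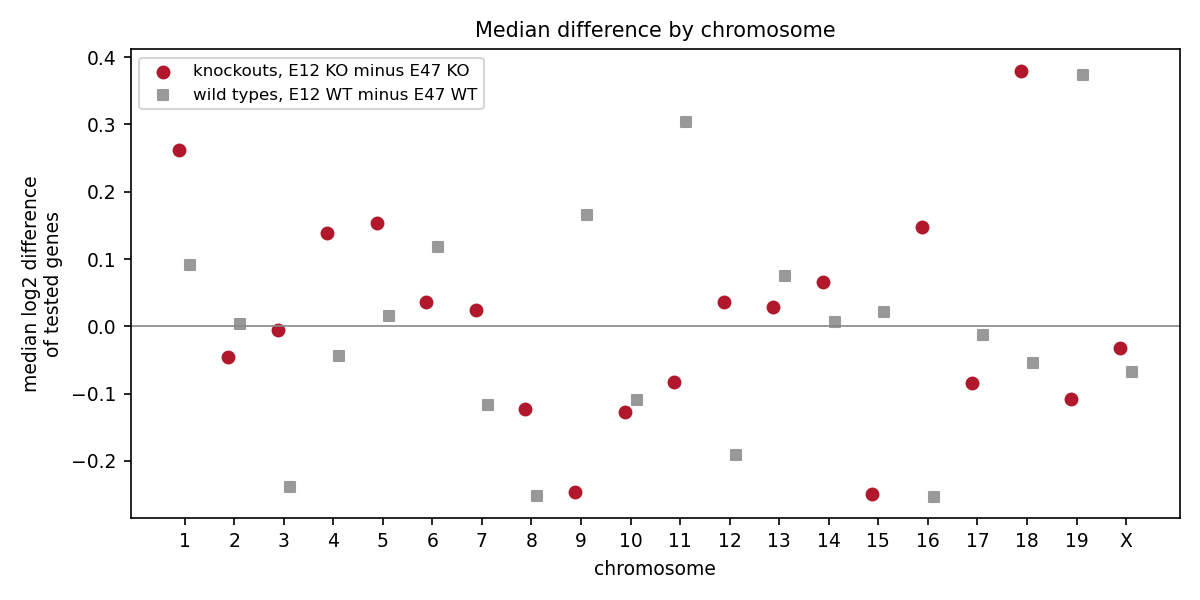
Median log2 difference of tested genes on each autosome and the X chromosome, between the knockouts (E12 KO minus E47 KO, circles) and between the wild types (E12 WT minus E47 WT, squares). Chromosome 18 (0.38) and chromosome 1 (0.26) lie highest for the knockouts, and chromosomes 9 and 15 (both -0.25) lowest.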

How the data were processed

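Per the labels' protocols, libraries were polyA-enriched and unstranded. Per the submitters' processing notes, FastQC, HISAT and featureCounts were used with GRCm38 (mm10) (versions and gene models, not given in the sources used here). In the authors' deposited table are raw counts, in whole numbers, with a column per library. Symbols were matched to GENCODE M21 for 53362 of 55353 lines; 26 had become dates, with at most 0.198% of a library's counts.

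Genes passing edgeR's filter on low counts (13992) were fitted in edgeR 4.0.16 (R 4.3.3, limma 3.58.1) over all 8 libraries as 4 groups, TMM-scaled, with 4 residual degrees of freedom and a common biological coefficient of variation of 0.0598. Contrasts used the quasi-likelihood F test with Benjamini-Hochberg adjustment over all tested genes, called under 0.05. Each value given as SE, or after ±, is the absolute log2 difference divided by the square root of F. It was worked back from the test and is not a standard error reported by the fit. The code was tested on simulated data. Between the knockouts, medians over lists, chromosomes and all tested genes set group totals under 3 counts to 3. Between the wild types, and in chromosome blocks, medians are of the fitted log2 differences without that limit. The knockout and wild-type medians are therefore not quite the same measure. Lists held 1096 genes in 45 lists, 896 of them tested. Named genes were the 10 largest rises and falls with more than 3 counts in each knockout and a mean of at least 2 CPM, up to 4 members per list with the lowest p, genes at 0 in either knockout, the 8 most abundant 2-fold genes each way, and E, Id, CDK inhibitor, contractile and sex genes; some of them are not reported here. The comparison, members and lists were chosen with earlier results of these data known. Alternatives were RLE, upper quartile and total-count scaling, DESeq2 1.42.0, no filter, a test against 1.5-fold, a fit of the 4 knockout libraries and leaving out each.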

Additional observations from a re-analysis of the deposited data

Results flagged for a closer look

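For 160 of 202 named and tested genes the difference between the knockouts (E12 KO minus E47 KO) departed from that between the wild types (E12 WT minus E47 WT) by a test of the difference itself, edgeR's quasi-likelihood test of the interaction with an adjusted p under 0.05. The values are given here for the 10 largest differences each way and for the E and Id, CDK inhibitor, contractile and sex-specific genes, of which 33 passed and 31 had more than 3 counts in each of the 4 groups. Rps4l and Xist passed with 3 counts or fewer in E12 WT. Among the genes higher in E12 KO the log2 difference of differences was 3.25 for Prl, 6.54 for Myo5c, 10.26 for Pcdhga11, 3.14 for Klhl30, 3.31 for Gpr39 and 6.13 for Tnik. Among the genes lower in E12 KO it was -7.65 for Thbs2, -4.42 for Ccn3, -5.86 for Col2a1, -6.36 for Emb, -6.11 for Gpx3, -1.65 for Prss35, -5.60 for Pde10a, -5.12 for Dkk3 and -7.51 for Ctsc. Among E and Id proteins it was 1.54 for Tcf4, -0.63 for Id3 and -0.99 for Id1.

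For the CDK inhibitors the value was -0.91 for Cdkn1a, -1.68 for Cdkn2b, -0.85 for Cdkn2d, 0.40 for Cdkn1b, -0.90 for Cdkn2a and 0.59 for Cdkn2c. For contractile genes it was 0.71 for Cnn1, 0.50 for Acta2, 2.19 for Myh11 and -4.10 for Myocd. For Y-linked genes it was 0.86 for Kdm5d, 0.39 for Eif2s3y and 0.71 for Uty. Across all tested genes 48.6% passed the same test.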

How the results depend on the processing

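With edgeR's test against a 1.5-fold difference, 796 genes were higher and 1480 lower in E12 KO, 1284 higher and 1397 lower in E12 WT than in E47 WT, the difference of differences was positive at 964 genes and negative at 1595, and 106 list members were higher and 254 lower, against 246 and 408 without that limit. Fewer calls follow from its construction. No filter on low counts left 1 chromosome past the limit, against 4. Leaving out a library gave 11 to 28 genes at 0 in E12 KO, against 11, and 1 to 2 at 0 in E47 KO, against 1. Under the other settings the counts of higher and lower genes stayed within 1.5 times: 2961 and 3188 with DESeq2, 3230 and 4126 with upper quartile scaling, and 2950 to 3234 and 3143 to 3269 with a library left out. Outside the 1.5-fold test, 15 of 90 list counts moved by more than 1.5 times, 11 of them counts of 3 or fewer. The other 4 were 3 G1 genes lower without the first E12 KO or the second E47 KO library, against 6, 2 to 3 Hox genes higher without the first E47 KO library, with DESeq2, with upper quartile scaling or without the second E12 KO library, against 5, and the mitochondrial and oxidative phosphorylation counts given above. Of 195 called genes among the 202 named and tested, 26 lost the call in at least 1 setting, 6 of them outside the 1.5-fold test, and none changed sign. Wild-type and interaction contrasts could not be computed in the fit of the knockouts alone. No paired analysis was possible because the labels give no replicate numbers and the numbers used here only name the libraries. With 2 extractions a group, depth limits genes near the limit of 3 counts.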
